A study of Mus musculus with 8 samples.

Results

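Tumour necrosis factor (Tnf), the genes of its receptors and the genes of the NF-kB factors that act below them were followed in cultured vascular smooth muscle cells from mouse aorta. The genes were taken from a list of 10 symbols, matched by symbol to the probe sets named in the supplied platform table. Of the 10, 9 were found among the 24704 genes tested. These are Tnf, Tnfrsf1a, Tnfrsf1b, Tnfaip2, Tnfaip3, Nfkbia, Nfkb2, Rela and Relb, and the tenth listed symbol was not analysed here. RNA from 8 samples was hybridised to single-colour Affymetrix arrays, with 4 arrays carrying AdPl in their titles and the genotype label control, and 4 carrying AdN5 and the label NFAT5 overexpression. Cells of both groups had been grown in medium with 15% FCS, exposed to adenovirus for 24 h and then kept with cholesterol at 10 µg/ml for 72 h, so that virus and cholesterol are shared by the controls and no arrays of untreated cells were used here. The labels do not say what the control virus carries, which promoter drives the transgene, or whether the numbered arrays came from separate cultures, so that p-values measure only the spread between these arrays, which may be technical.

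TNF is a cytokine that is made as a membrane-bound trimer and shed by a protease. It binds TNFR1, present on most cells, and TNFR2, which is more restricted, and their adaptors switch on the IkB kinase. The kinase marks IkB-alpha for degradation and so frees dimers of p65 (Rela) to enter the nucleus, where they induce cytokines and chemokines together with their own brakes, IkB-alpha (Nfkbia) and A20 (Tnfaip3). A slower branch processes the p100 protein of Nfkb2 and uses RelB. In arterial smooth muscle this pathway is known for turning on adhesion molecules, chemokines and inducible enzymes. NFAT5 shares the Rel-type DNA-binding domain with the NF-kB proteins, is best known for the response to osmotic stress, and has been described as an activator of the TNF gene in hypertonic T cells.

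All values are log2 levels as the authors normalised them (RMA), and a difference is the AdN5 mean minus the AdPl mean. A gene was called when its Benjamini-Hochberg adjusted p in limma, over all genes tested, was under 0.05. The probe set of Nfat5 read 7.06, 7.22, 7.11 and 7.25 on AdPl arrays 1 to 4 and 7.06, 6.95, 6.98 and 6.88 on AdN5 arrays 1 to 4. It was thus not raised on the arrays labelled as overexpressing it (difference -0.19, exact two-sided permutation p = 0.0571), and the position of its probes, and so whether they read the virus transcript, is not given in the sources used here. Directions below are therefore those of the labels. For the type of the cells, the levels of 8 smooth muscle markers were read. Of these 0 were called, a comparison of the groups that does not check the type. The actin gene Acta2 was bright (12.04 ± 0.021 on AdPl arrays, SD, n = 4), while Myocd and Des, 2 of the 8, were dimmer than 3.76, the level of a median probe set. At an unadjusted p under 0.05, 1 of the 8 was higher and 1, Acta2, was lower.

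Of the 9 genes, Tnf rose and no other passed the test. The call of Tnf was lost in 7 of the 8 fits that left out 1 array. Across all genes tested 0.777% were called and 0.364% were called as higher. At an unadjusted p under 0.05, 5 of the 9 were higher and 0 lower, where 12.5% of all genes tested passed that threshold, 6.24% as higher and 6.29% as lower. On 7 of the 9 the AdN5 arrays all lay above the AdPl arrays, against 4.22% of all genes tested in that direction and 8.78% in either direction. These 7 were Tnf, Tnfrsf1b, Tnfaip2, Tnfaip3, Nfkbia, Nfkb2 and Rela, Relb overlapped, and Tnfrsf1a was the 1 gene with a lower mean. The median difference of the 9 genes was 0.25, beside 0.0042 over all genes tested. Of the 9 genes, 0 were dimmer than a median probe set, against 12438 of the 24704 genes tested. The shares over all genes are thus not matched for level. The genes were also chosen with earlier results of these data known. The 9 genes were read from the same 8 arrays and are not independent of each other, and with RNA from whole cultures more cells of a type cannot be told apart from more RNA per cell.

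**Figure D1:**
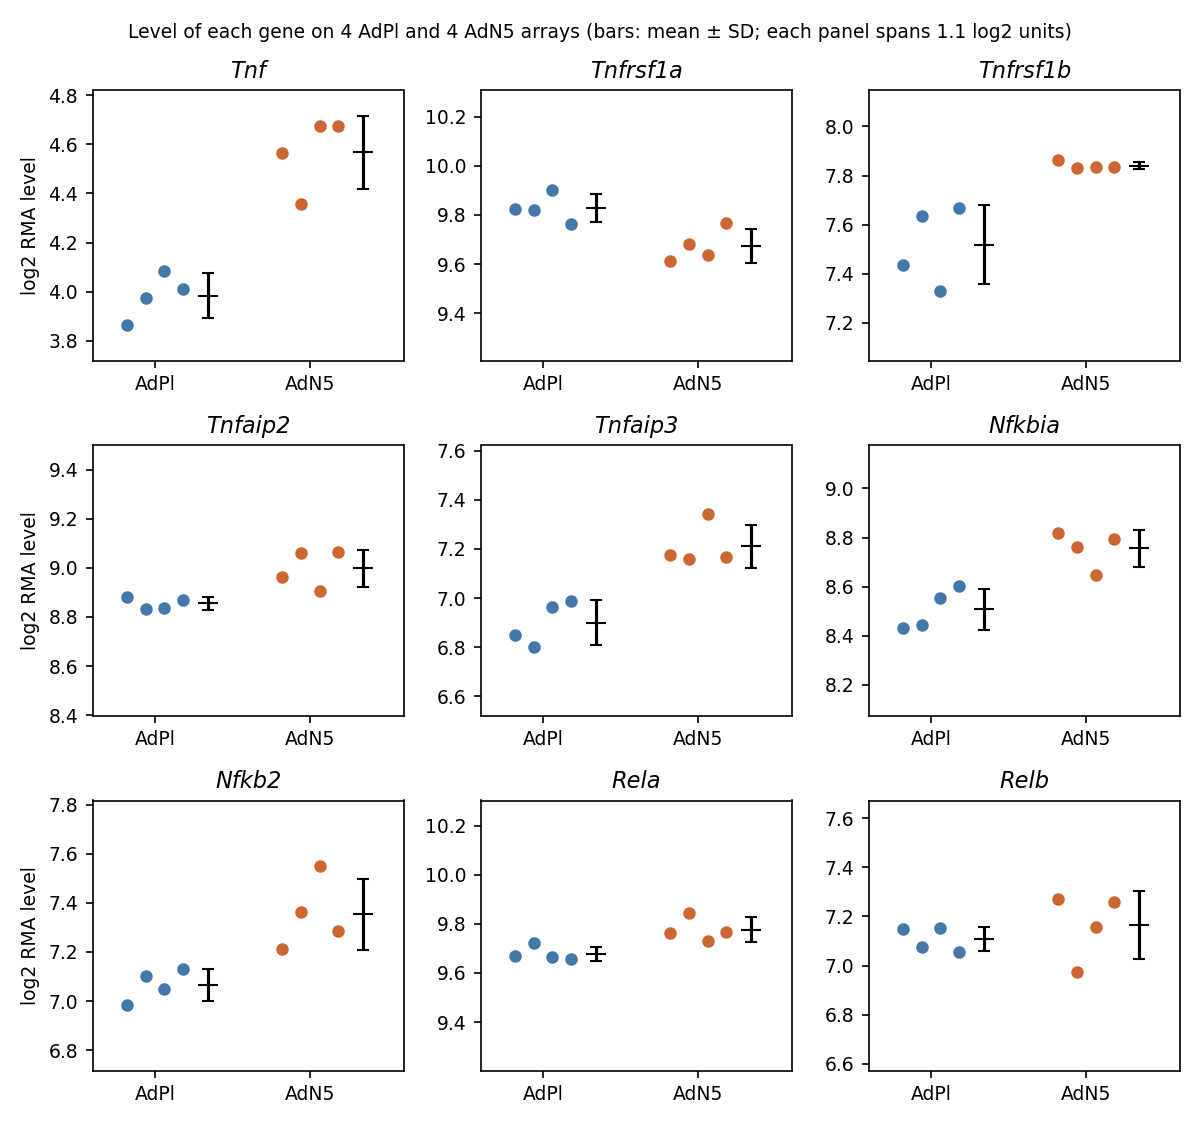
Log2 RMA level (y axis) of each of the 9 genes on the 4 AdPl arrays (blue) and 4 AdN5 arrays (orange), in order of array number, with the group mean and SD in black. All panels cover the same span of log2 units, so the steps can be compared: Tnf has the widest step, from a mean of 3.98 to 4.57, and Tnfrsf1a and Relb are the panels in which the groups overlap.

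The bases before the transcription start are shown for Tnf, the called gene, and for Tnfaip3, Nfkbia and Nfkb2, textbook targets of NF-kB whose arrays also separated. They are the 250 bases before the most upstream start that the promoter table used here (RefSeq, GRCm38.p6) holds for each gene, and 8 of the 9 genes had an entry. These need not be the outermost starts: in RefSeq's gene table the loci of Nfkb2, Tnfaip2 and Rela begin further upstream than the starts used. Capitals mark matches to the NF-kB consensus on either strand. Tnfrsf1b, whose arrays also separated with an unadjusted p under 0.05 in limma, held no match and is not shown. The windows lie at chr17:35202008-35202257 (minus strand) for Tnf, chr10:19015411-19015660 (minus strand) for Tnfaip3, chr12:55492648-55492897 (minus strand) for Nfkbia and chr19:46304487-46304736 (plus strand) for Nfkb2.
Tnf: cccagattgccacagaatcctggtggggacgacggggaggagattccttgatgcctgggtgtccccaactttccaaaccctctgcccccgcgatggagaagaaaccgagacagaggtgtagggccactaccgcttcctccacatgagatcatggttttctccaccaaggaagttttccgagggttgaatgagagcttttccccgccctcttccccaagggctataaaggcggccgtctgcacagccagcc
Tnfaip3: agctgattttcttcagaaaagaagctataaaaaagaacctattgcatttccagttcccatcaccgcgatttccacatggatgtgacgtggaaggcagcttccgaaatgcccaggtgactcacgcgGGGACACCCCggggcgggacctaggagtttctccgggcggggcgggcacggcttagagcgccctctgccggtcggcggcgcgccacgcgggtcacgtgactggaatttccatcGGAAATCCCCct
Nfkbia: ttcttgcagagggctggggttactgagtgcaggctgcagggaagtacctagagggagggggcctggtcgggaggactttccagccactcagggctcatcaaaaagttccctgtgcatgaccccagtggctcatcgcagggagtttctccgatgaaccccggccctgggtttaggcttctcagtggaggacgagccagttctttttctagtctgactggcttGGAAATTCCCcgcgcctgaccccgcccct
Nfkb2: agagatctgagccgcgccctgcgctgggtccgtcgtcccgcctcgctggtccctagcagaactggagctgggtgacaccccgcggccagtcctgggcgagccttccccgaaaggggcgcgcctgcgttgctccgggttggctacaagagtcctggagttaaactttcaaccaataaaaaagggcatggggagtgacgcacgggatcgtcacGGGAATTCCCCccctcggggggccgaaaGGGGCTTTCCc

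The consensus was found in 7.25% of 32851 windows of this length. The windows of Tnfaip3 and Nfkb2 each held 2 separate stretches and that of Nfkbia held 1. Counted from the start, the stretches nearest to it ran from -12 to -3 in Tnfaip3, from -29 to -20 in Nfkbia and from -11 to -2 in Nfkb2. Tnfaip2 held 1 stretch, from -24 to -15. The letters were not in the windows of Tnf, Tnfrsf1a, Tnfrsf1b or Rela, nor in a second window listed for Tnfaip3, while all 3 windows listed for Nfkb2 held them. The consensus of the tonicity element, the DNA sequence bound by NFAT5, was in 4.31% of all windows and, among these genes, in that of Nfkbia only, from -179 to -169 and from -30 to -20. The second of these shares its bases with the NF-kB stretch, since both motifs can be read from the same run. A match describes the letters and is not evidence of binding.

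The ligand Tnf read 3.86, 3.98, 4.08 and 4.01 on AdPl arrays 1 to 4 and 4.56, 4.36, 4.67 and 4.67 on AdN5 arrays 1 to 4. The lowest AdN5 array, replicate 2, was still above the highest AdPl array. The difference was 0.58 ± 0.094 (SE; 95% interval 0.37 to 0.79; adjusted p = 0.0283 in limma), an interval of 1.29-fold to 1.73-fold, and the exact two-sided permutation p was 0.0286, the smallest that 4 against 4 arrays allow. Leaving out 1 array moved the difference between 0.54 and 0.65 and the adjusted p between 0.0246 and 0.0952. Tnf was the dimmest of the genes followed, with Tnfaip3 next at a mean of 6.90 on AdPl arrays. Where a median probe set read 3.76, Tnf had means of 3.98 on AdPl arrays and 4.57 on AdN5 arrays. Its mean was at the 52.8 percentile of probe sets on AdPl arrays and at the 59.0 percentile on AdN5 arrays, and RMA compresses differences at such levels, so the fold is uncertain.

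Macrophages are the main source of TNF in tissues, and the markers of these cells had higher means on the AdN5 arrays too. All 12 measured macrophage markers had differences above 0, with a median of 0.33, where 51.0% of all genes tested were above 0. Of the 12, 3 were called as higher and 7 had AdN5 arrays that all lay above the AdPl arrays. Those shares over all genes tested were 0.364% and 4.22%. At an unadjusted p under 0.05, 8 were higher and 0 lower, against 6.24% and 6.29% of all genes tested. The sum of the markers' signals on the linear scale ran from 1199.9 to 1347 on AdPl arrays and from 1629 to 1868 on AdN5 arrays. Adgre1, the gene of a macrophage surface antigen, rose by 0.68 (adjusted p = 0.00884 in limma, but 0.0774 without AdPl replicate 3 and AdN5 replicate 4 together). Laptm5, a lysosomal protein of leukocytes, rose by 0.53 and Cd68, a lysosomal glycoprotein, by 0.52, and leaving out 1 array ended the call of Laptm5 in 7 of 8 fits and that of Cd68 in all 8. Csf1r (0.14) and the endotoxin co-receptor gene Cd14 (0.11) had the smallest differences and were not called. Ptprc, the pan-leukocyte gene CD45, was the 1 marker dimmer than a median probe set, so the shares over all genes tested are not matched for level. The marker list was chosen with earlier results of these data known, so its shares are a description and not a test. Whether macrophages were present in the cultures, or had a part in the Tnf difference, was not tested.

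**Figure D2:**
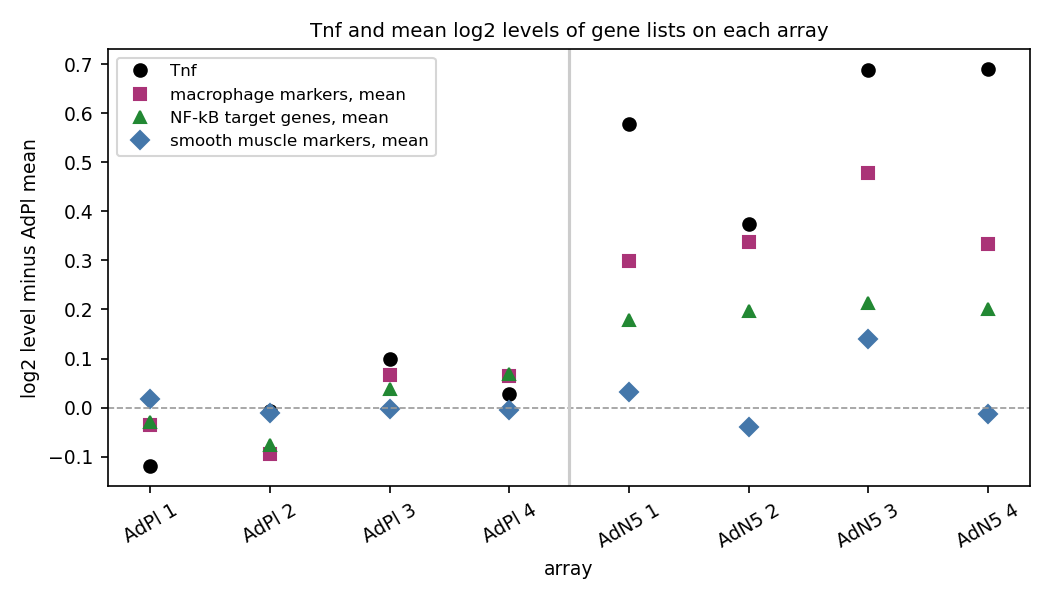
Log2 level minus the mean of the AdPl arrays (y axis) on each of the 8 arrays (x axis) for Tnf (circles) and for the mean of 12 macrophage markers (squares), 30 NF-kB target genes (triangles) and 8 smooth muscle markers (diamonds). Tnf, the macrophage markers and the NF-kB targets are higher on all 4 AdN5 arrays, whereas the smooth muscle markers overlap between the groups.

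The differences of the receptor genes had opposite signs, and neither was called. Tnfrsf1a encodes TNFR1, the receptor that signals for inflammation and cell death. It read 9.82, 9.82, 9.90 and 9.76 on AdPl arrays 1 to 4 and 9.61, 9.68, 9.64 and 9.77 on AdN5 arrays 1 to 4. Only AdN5 replicate 4 reached into the AdPl range, at about the lowest AdPl array. The difference was -0.15 ± 0.072 (SE; 95% interval -0.31 to 0.0099) and was not called (adjusted p = 0.434 in limma).

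Tnfrsf1b encodes TNFR2, which lacks a death domain and is inducible. It read 7.44, 7.63, 7.33 and 7.67 on AdPl arrays 1 to 4 and 7.86, 7.83, 7.83 and 7.84 on AdN5 arrays 1 to 4. The AdN5 arrays were close together (SD 0.014, n = 4) and above all AdPl arrays, which spread widely (SD 0.16, n = 4). Its difference of 0.32 ± 0.090 (SE; 95% interval 0.12 to 0.52; 1.25-fold) was not called (adjusted p = 0.173 in limma), although the interval of this gene taken alone lies above 0.

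Among the inhibitors, Tnfaip3 encodes A20, a ubiquitin-editing enzyme that shuts off signalling at the receptor. It read 6.85, 6.80, 6.96 and 6.99 on AdPl arrays 1 to 4 and 7.17, 7.16, 7.34 and 7.17 on AdN5 arrays 1 to 4, with replicate 3 above the others. The groups did not overlap, and the difference was 0.31 ± 0.081 (SE; adjusted p = 0.147 in limma). The difference corresponds to 1.24-fold, with a 95% interval of 0.13 to 0.49 on the log2 scale.

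Nfkbia encodes IkB-alpha, which holds NF-kB dimers in the cytoplasm. It read 8.43, 8.45, 8.55 and 8.60 on AdPl arrays 1 to 4 and 8.82, 8.76, 8.65 and 8.79 on AdN5 arrays 1 to 4. The groups were separate, with AdN5 replicate 3 just above AdPl replicate 4. The difference was 0.25 ± 0.077 (SE; 95% interval 0.073 to 0.42; adjusted p = 0.226 in limma). Tnfaip2, an endothelial and myeloid gene first cloned as TNF-induced, lay between 8.83 and 8.88 on AdPl arrays and between 8.91 and 9.06 on AdN5 arrays. The groups were separate by a narrow margin, and the difference of 0.14 ± 0.071 (SE; 95% interval -0.016 to 0.30) was not called (adjusted p = 0.461 in limma).

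The subunit genes were less alike. Nfkb2, the gene of p100 and its product p52, read 6.98, 7.10, 7.05 and 7.13 on AdPl arrays 1 to 4 and 7.21, 7.36, 7.55 and 7.29 on AdN5 arrays 1 to 4. The groups did not overlap, and AdN5 replicate 3 was again the highest. Its difference was 0.29 ± 0.089 (SE; 95% interval 0.086 to 0.49; adjusted p = 0.223 in limma), and 0.22 without that array.

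Rela, the gene of p65, was bright and even, at 9.66 to 9.72 on AdPl arrays and 9.73 to 9.85 on AdN5 arrays. The groups were separate, but by less than 1 SD of either group, and the difference of 0.098 ± 0.067 (SE; adjusted p = 0.616 in limma) was not called. The upper end of its 95% interval was 0.25, or 1.19-fold. Relb, the partner of p52, overlapped between the groups, at 7.05 to 7.15 on AdPl arrays and 6.97 to 7.27 on AdN5 arrays. Its difference was 0.056 ± 0.086 (SE; 95% interval -0.14 to 0.25; adjusted p = 0.855 in limma), so that a change of the size seen for Tnf lies outside the intervals of both genes.

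**Figure D3:**
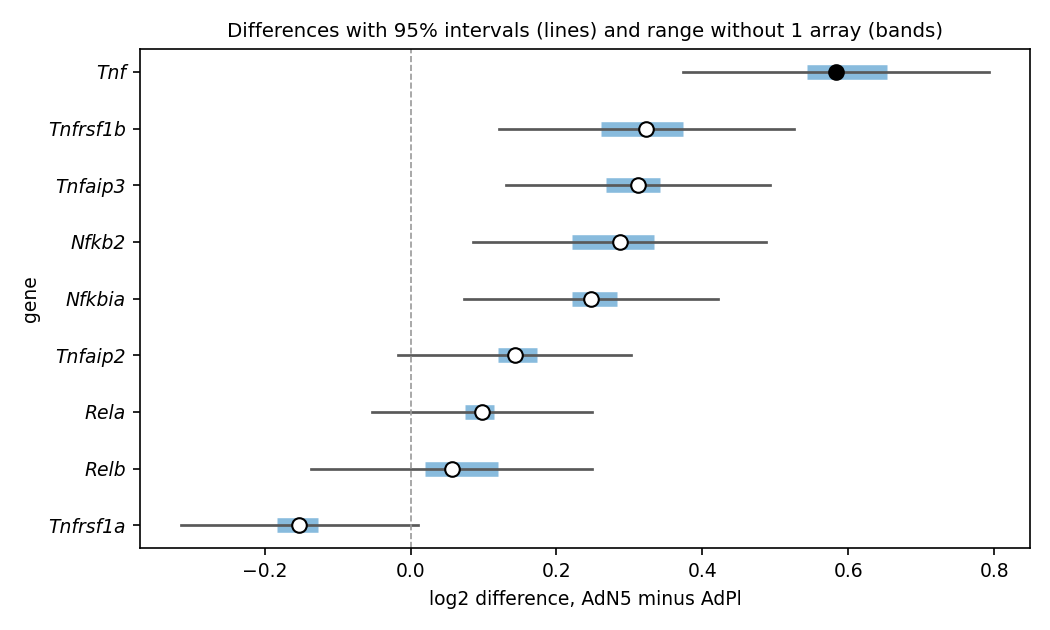
Log2 difference, AdN5 minus AdPl (x axis), of the 9 genes (y axis). Circles are the differences (filled where called), lines the 95% intervals of limma for each gene taken alone, and pale bands the range when 1 array is left out; the differences run from -0.15 for Tnfrsf1a to 0.58 for Tnf, the 1 filled circle.

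A call for Tnf and none for the others does not show that they differ, so the level of Tnf minus that of each other gene was compared between the groups within arrays. Tnf was singled out because it was called, which favours a large gap. The Tnf difference exceeded that of Relb by 0.53 ± 0.072, that of Rela by 0.48 ± 0.11, that of Tnfaip2 by 0.44 ± 0.11, that of Nfkbia by 0.34 ± 0.097 and that of Tnfaip3 by 0.27 ± 0.075 (SE). It exceeded that of Tnfrsf1a, which had the opposite sign, by 0.74 ± 0.089. These 6 comparisons had an exact permutation p of 0.0286 and 0.0381 after Benjamini-Hochberg adjustment over the 8 comparisons made. All 6 sit at the smallest p that the number of arrays allows and share the same Tnf readings, so they are not independent of each other. For Nfkb2 the gap was 0.30 ± 0.10 (exact permutation p = 0.0571, adjusted 0.0653) and for Tnfrsf1b 0.26 ± 0.12 (exact permutation p = 0.0857, adjusted 0.0857), neither past 0.05. Genes of different brightness are compressed differently by RMA, so the gaps carry that limit.

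Once the group means were removed, the genes did not move as a block from array to array. Of the 36 pairs 18 had a Pearson correlation above 0 over the 8 arrays, with Tnfaip3 and Nfkb2 at 0.64 and Tnf and Rela at -0.73 at the ends, and such values over 8 arrays are a description only. The genes whose deviations were most like those of Tnf, among 12351 genes brighter than the median, were Ppp1ca (0.99), Gm40720 (0.96) and 2810004N23Rik (0.96). None of these 3 was called, and 28 genes had a correlation above 0.9 with Tnf.

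Further genes of the pathway were read from lists. Of 19 measured genes acting at the receptor, from the shedding protease Adam17 to the adaptors, ubiquitin ligases and death kinases, 0 were called, 12 were above 0 and the median difference was 0.033. At an unadjusted p under 0.05, 2 were higher and 1 lower, so that 3 of 19 stand beside 12.5% of all genes tested, a share that also serves as background for the lists that follow. The largest were Ripk3, the kinase of necroptosis (0.31, adjusted p = 0.135 in limma), and Casp8, the initiator caspase (0.25, adjusted p = 0.172 in limma), whose arrays did not overlap. Ripk3 read 6.65 to 6.83 on AdPl arrays and 6.99 to 7.16 on AdN5 arrays. The adaptor genes Traf2 (-0.18) and Tab1 (-0.14) were at the lower end, and the AdN5 arrays of Traf2 all lay below its AdPl arrays.

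Of 17 genes of the IkB kinase, linear ubiquitin and IkB proteins, 0 were called (unadjusted p under 0.05 for 3 with higher and 0 with lower means), with 11 above 0 and a median of 0.044. Rel, the gene of the c-Rel subunit, was at 0.34 (adjusted p = 0.215 in limma) and Nfkbie, encoding IkB-epsilon, at 0.31 (adjusted p = 0.165 in limma). The arrays of both were separate, with Rel at 5.33 to 5.75 against 5.82 to 6.07 and Nfkbie at 5.15 to 5.32 against 5.38 to 5.65. Map3k14, the kinase that starts p100 processing, was at -0.21 and the IkB kinase gene Ikbkb at -0.16, not called.

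The other TNF superfamily ligands lay mostly below 0, at 13 of 16 genes with a median of -0.13, and 0 were called (unadjusted p under 0.05 for 0 with higher and 2 with lower means). As 11 of the 16 were dimmer than a median probe set, their values say little. The B cell factor Tnfsf13 was at -0.68 with a wide spread (SD 0.88 on AdN5 arrays, n = 4) and the CD30 ligand Tnfsf8 at -0.38, while Cd70 (0.11) and Lta, encoding lymphotoxin-alpha (0.10), were at the upper end. The 26 other TNF receptor genes were balanced, with 13 above 0, 0 called (unadjusted p under 0.05 for 2 with higher and 1 with lower means) and a median of 0.0049. Tnfrsf9, encoding 4-1BB, was at 0.35 and Tnfrsf14, the receptor of LIGHT, at 0.32, against -0.36 for the decoy receptor gene Tnfrsf22 and -0.23 for Tnfrsf13c, encoding the receptor of BAFF. Of the 6 other genes named as TNF-alpha-induced proteins 0 were called (1 higher at an unadjusted p under 0.05) and 4 were above 0, among them Tnfaip6, a hyaluronan-binding protein of inflammation (0.42), and Tnfaip8l2 (0.26), with Tnfaip8l1 (-0.16) and Tnfaip1 (-0.034) at the other end. As 4 of these 6 were dimmer than a median probe set, the size of their differences is uncertain too.

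Genes that NF-kB is known to induce held further calls. The test called 4 of 30 target genes, each of them higher on AdN5 arrays, where 0.364% of all genes tested were called as higher. The AdN5 arrays of 11 lay above all AdPl arrays, against 4.22% of all genes tested. At an unadjusted p under 0.05, 10 of the 30 were higher and 2 lower, against 6.24% and 6.29% of all genes tested. The median difference of the 30 was 0.067, with 20 above 0 and 10 below. Of the 30, 6 were dimmer than a median probe set, so the shares over all genes tested are not matched for level. The list was chosen with earlier results of these data known and shares some genes with the lists above, so its shares are a description and not a test. Nos2, the inducible nitric oxide synthase, had the largest difference, at 8.28 to 8.57 on AdPl arrays and 9.35 to 9.60 on AdN5 arrays (1.09, adjusted p = 0.00117 in limma). The chemokine gene Ccl5 rose by 0.83 (adjusted p = 0.00802), the cyclooxygenase gene Ptgs2 by 0.69 (adjusted p = 0.00537) and the monocyte chemoattractant gene Ccl7 by 0.51 (adjusted p = 0.0255). The calls of Nos2, Ccl5 and Ptgs2 held in all 8 fits that left out 1 array, and that of Ccl7 in 1. Without AdPl replicate 3 and AdN5 replicate 4 together, the calls of Ptgs2 (adjusted p = 0.0658 in limma) and Ccl7 (adjusted p = 0.082 in limma) were lost.

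The remaining 26 targets were not called. Those nearest the threshold were Csf1 (0.32, adjusted p = 0.0773 in limma), Il1a (0.67, adjusted p = 0.0897 in limma) and Ccl2 (0.38, adjusted p = 0.105 in limma). Their AdN5 arrays all lay above the AdPl arrays, and they were named after their values were seen. The neutrophil chemokine gene Cxcl2 was at 0.86 (adjusted p = 0.127) but dim, at 2.12 to 3.06 on AdPl arrays. The adhesion molecule genes Icam1 (-0.00076, 95% interval -0.15 to 0.15) and Vcam1 (0.054, 95% interval -0.10 to 0.21) and the superoxide dismutase gene Sod2 (-0.029, 95% interval -0.18 to 0.12) had intervals that reached to at most 0.21, and were named after their values were seen. Csf2 (-0.38), whose AdN5 arrays all lay below its AdPl arrays, and Ccl20 (-0.37) were at the lower end and were not called. The targets also include products of macrophages, whose markers were higher as given above. Whether such cells were present, or had a part in these differences, was not tested.

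**Figure D4:**
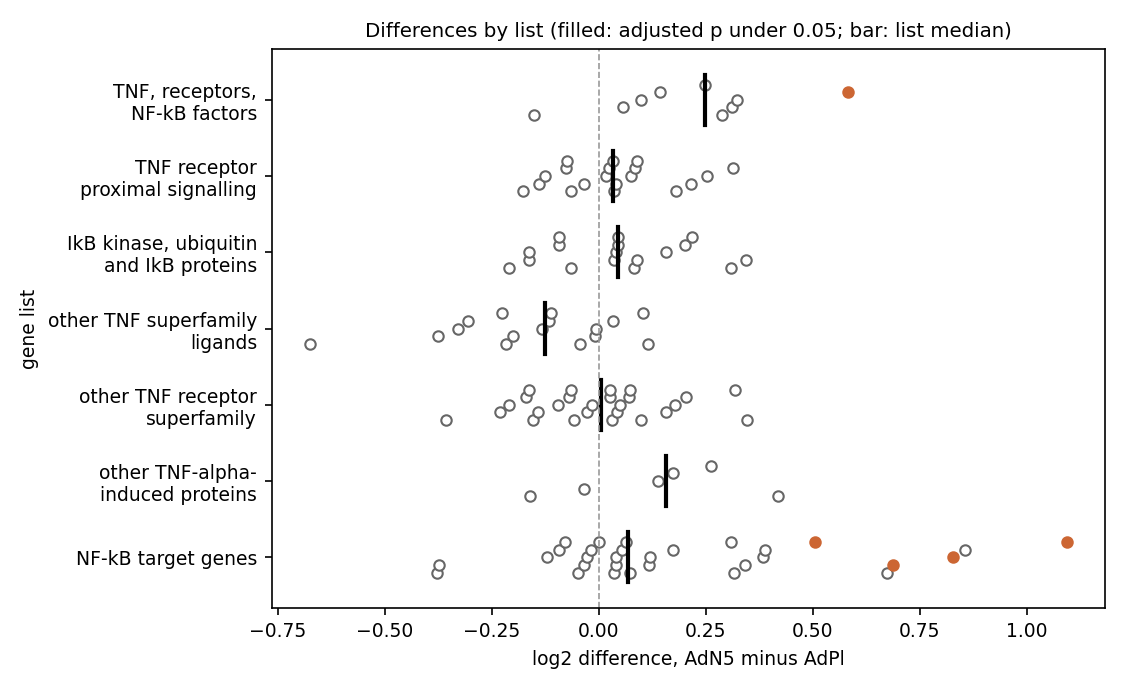
Log2 difference, AdN5 minus AdPl (x axis), of every measured gene of the 9 genes described and of 6 lists of related genes (y axis). Filled points were called and black bars are list medians; 5 points are filled, Tnf and 4 NF-kB target genes, and the medians run from -0.13 for other ligands to 0.25 for the 9 genes.

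Markers of the other cell types a culture could hold were read in the same way. Of 7 fibroblast or adventitial markers, Ly6c1 fell by 1.24 (adjusted p = 0.0468 in limma, called in 1 of 8 fits that left out 1 array). Ly6c1 was dim, at 3.80 to 4.35 on AdPl arrays and 2.15 to 3.32 on AdN5 arrays, so the size of its fall is uncertain. Cd34 was at -0.53 and Dpt at -0.35 with arrays that did not overlap, and Clec3b (0.061) and Tcf21 (0.0065) were at the other end. The summed linear signal was 841 to 959 on AdPl arrays and 749 to 819 on AdN5 arrays. Most of that sum came from Pdgfra, whose arrays overlapped and which was not called (-0.17, adjusted p = 0.487 in limma). At an unadjusted p under 0.05, 3 of these 7 were lower and 0 higher, and the median difference was -0.17. Their part in the differences of the 9 genes was not tested. Endothelial markers had 0 of 7 called (1 higher at an unadjusted p under 0.05), with Cdh5 at 0.35, Pecam1 at 0.12, Tie1 at -0.12 and Tek at -0.22, and summed signals that overlapped, at 188 to 236 and 213 to 249. Lymphocyte markers had 0 of 7 called (0 at an unadjusted p under 0.05) and 6 dimmer than a median probe set, with Cd4 at 0.39, Cd79a at 0.16, Ms4a1 at 0.048 and Cd8a at -0.021, at summed signals of 45.5 to 52.8 and 51.3 to 61.4. The smooth muscle markers ran from Cnn1 (0.33) and Lmod1 (0.17) to Myocd (-0.026) and Acta2 (-0.30, adjusted p = 0.113), and the sum of the 8 was 3984 to 4389 on AdN5 arrays against 4864 to 4978 on AdPl arrays. Acta2 alone made up 81.7% to 86.5% of that sum, and without it the other 7 summed to 665 to 732 on AdPl arrays and 730.3 to 797 on AdN5 arrays, which overlap.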

How the data were processed

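Expression was measured on 8 arrays, grouped and numbered by their titles. The values are the log2 levels that the authors deposited, which per the submitters' processing notes came from RMA, and the arrays' sorted values differed by at most 0.00183, so a shift of all genes in 1 direction cannot be seen. For probe positions and genome build no source used here gives a value. Of 25428 probe sets, 24705 had 1 gene symbol in the supplied platform table and 723 have no entry there and are left unnamed; the brighter of 2 probe sets was kept for 1 symbol, leaving 24704 genes. No dim genes were removed.

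The groups were compared with limma 3.58.1 in R 4.3.3 (lmFit, eBayes, two-sided, 8 arrays, no covariates), with Benjamini-Hochberg adjustment over all genes. Errors of differences are standard errors of that fit, and those of Tnf minus another gene come from the group variances. Exact permutation tests used all 70 assignments of the arrays. Motifs were searched on both strands with Python 3.11.15, and matplotlib 3.10.9 drew the figures. The code was tested on simulated data. The alternatives are a replicate block, other scalings, filters, variance models, array weights and left-out arrays.

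The genes and lists were chosen with earlier results of these data known. Named are the 9 genes, the called genes and the 2 genes at either end of each list, and the 3 genes most like Tnf. Adam17, Des, Ptprc, Icam1, Vcam1, Sod2, Dpt, Pdgfra, Csf1, Il1a and Ccl2, which fall outside this rule, were named after their values were seen. Listed genes without a named probe set were not analysed here. Of a p adjusted over the 10 listed genes alone, planned at first, no use was made.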

Additional observations from a re-analysis of the deposited data

Results flagged for a closer look

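In 4 of the 124 groups of 4 arrays examined, 1 array stood so far from the other 3 that its gap, as a share of the group's range, passed Dixon's 95% critical value. Chance gives this in about 1 group in 20. For Tnfaip3, AdN5 replicate 3 read 7.34 and the other AdN5 arrays 7.16 to 7.17 (share 0.925). For Tnfrsf1b, AdN5 replicate 1 read 7.86 and the others 7.83 to 7.84 (share 0.84), a gap that is small on the log2 scale. Among other genes, Tnfsf8 read 3.59 on AdPl replicate 3 against 3.91 to 3.97 on the others (share 0.843), and the dim gene Csf2 read 1.72 on AdN5 replicate 4 against 2.22 to 2.25 (share 0.947).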

How the results depend on the processing

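All 9 genes kept the sign of their difference under each of the 17 alternatives run. The replicate block, the filters on level, the variance models and the mean over probe sets left these differences as they were by construction. Other scalings acted on arrays whose sorted values differed by at most 0.00183. A sign could therefore turn mainly with array weights or left-out arrays. With the replicate number as a block the Tnf difference stayed at 0.58 but was not called (adjusted p = 0.112 in limma), 0 of the 9 genes and 1 NF-kB target, Nos2, were called, and over all genes 14 were, 3 higher and 11 lower. The block ended the calls of Ccl5 and Ptgs2 (adjusted p = 0.0851 each in limma), Ccl7 (0.121), Adgre1 (0.0782), Laptm5 (0.138), Cd68 (0.111) and Ly6c1 (0.157). Deviations of same-numbered arrays from their group means correlated at only -0.079 to 0.055, so the numbers were not taken as a pairing. The AdN5 array with the highest correlation had the same number for AdPl replicates 1 and 2 but not for 3 and 4, so a pairing is not settled. Without AdPl replicate 3 and AdN5 replicate 4 together, Tnf was at 0.58 (adjusted p = 0.135 in limma), and 0 of the 9 genes, 2 targets and 30 genes in all (10 higher, 20 lower) were called. With a variance trend and robust estimation Tnfrsf1b (0.32), Tnfaip3 (0.31) and Nfkbia (0.25) were called beside Tnf, 4 of the 9, with 9 targets, 2 genes of receptor signalling, 1 other receptor and 781 genes in all (360 higher, 421 lower). Among genes above the median level, Tnfaip3 (0.31, adjusted p = 0.0451 in limma) was called beside Tnf, 2 of the 9, with 7 targets, 2 genes of receptor signalling and 497 genes in all (236 higher, 261 lower); fewer genes were tested there. At an adjusted p under 0.01, 42 genes were called (16 higher, 26 lower). Leaving out 1 array gave 56 to 88 genes in all (22 to 43 higher, 34 to 51 lower), 0 to 1 of the 9 genes, and Tnf at 0.54 to 0.65, called only without AdN5 replicate 2. Among the 62 genes run, it turned the sign of 8 that were not called, Icam1 (-0.020 to 0.016), Cd14 (-0.017 to 0.18), Cd70 (-0.039 to 0.25), Cd8a (-0.10 to 0.066), Lta (-0.0089 to 0.20), Ms4a1 (-0.012 to 0.096), Myocd (-0.076 to 0.055) and Tcf21 (-0.066 to 0.12). The cause of these changes was not tested. The number of arrays limits the precision, with a median standard error of 0.11 over all genes.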
